A study of Rattus norvegicus with 40 samples.

Results

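Cfd, Scd, Lpl, Slc2a4, Ucp1, G0s2 and Lipe, 7 genes of the adipocyte, were followed across all 11 groups of a rat carotid artery experiment, array by array. They were chosen by symbol: every probe set of the array whose annotation gave exactly 1 of these 7 names was taken, which made 13 probe sets among 8740, of 7 genes among 4736. The RNA came from common carotid arteries of male Wistar-Kyoto rats of 3 months, with vessels of 3 rats pooled for each of 40 Affymetrix rat arrays. In 8 groups of 3 arrays the left artery had been injured with a balloon catheter and covered on its outer side with pluronic gel, either plain (here called gel) or carrying recombinant tissue-type plasminogen activator (tPA) at 20 nmol/kg, and the injured left artery and the uninjured right artery of such rats were taken on day 1 or day 4. Sham-operated rats gave left arteries on day 1 (4 arrays) and day 4 (6 arrays), and rats without surgery, called intact, gave 6 arrays of left arteries. No group combined sham surgery with gel, so the gel itself had no control, and right arteries of sham-operated rats were not among the samples. The labels number replicates but do not tie a left to a right pool, and p-values measure only the spread between these pools, which may be technical in part.

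Carotid arteries lie in perivascular fat, which in rodents can hold white and brown adipocytes. White adipocytes take up fatty acids released by lipoprotein lipase and glucose through the insulin-regulated transporter GLUT4, store them as triglyceride and release them again by lipolysis. Brown adipocytes burn fatty acids in mitochondria uncoupled by UCP1, under sympathetic nerve control through cyclic AMP. Only Ucp1 among the 7 is close to specific for a fat cell type: Lpl is also made by macrophages and muscle, and Slc2a4 by skeletal, cardiac and smooth muscle. In pooled vessels, fewer adipocytes and less RNA per adipocyte cannot be told apart.

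RefSeq sequence around the start site was matched for Cfd, G0s2, Scd and Ucp1 (build GRCr8, 250 bases before to 50 after the start, all 4 on the minus strand). Those of Ucp1, Scd and Cfd are shown because these genes followed different patterns in the gel arteries of day 4: Ucp1 and Scd were higher than sham on the right, and Cfd on both sides. Capitals mark matches to 4 motifs searched on both strands, TATAAA (the TATA box), CCAAT (the box of that name), AGGTCA (a nuclear receptor half-site) and TGACG (a cyclic AMP half-site).
Ucp1, chr19:41721372-41721671, minus strand: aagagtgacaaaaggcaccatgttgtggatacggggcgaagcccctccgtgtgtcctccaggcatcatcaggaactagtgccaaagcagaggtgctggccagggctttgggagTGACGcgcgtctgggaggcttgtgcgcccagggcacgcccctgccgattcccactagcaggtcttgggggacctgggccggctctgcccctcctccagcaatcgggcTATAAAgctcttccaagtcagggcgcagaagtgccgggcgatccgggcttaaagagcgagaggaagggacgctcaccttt
Scd, chr1:253231682-253231981, minus strand: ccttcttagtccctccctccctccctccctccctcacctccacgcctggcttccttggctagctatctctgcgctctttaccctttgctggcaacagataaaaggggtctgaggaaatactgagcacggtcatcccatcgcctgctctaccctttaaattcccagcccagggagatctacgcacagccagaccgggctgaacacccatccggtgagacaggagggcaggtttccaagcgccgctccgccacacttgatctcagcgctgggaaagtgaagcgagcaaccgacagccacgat
Cfd, chr7:10465447-10465746, minus strand: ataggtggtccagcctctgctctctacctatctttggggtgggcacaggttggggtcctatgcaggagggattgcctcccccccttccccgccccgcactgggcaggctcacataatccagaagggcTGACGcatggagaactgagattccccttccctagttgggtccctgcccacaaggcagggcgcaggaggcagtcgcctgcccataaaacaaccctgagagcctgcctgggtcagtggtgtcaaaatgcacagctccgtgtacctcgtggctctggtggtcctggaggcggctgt
In the Ucp1 window TATAAA began at position -30 and TGACG at -137 relative to the start. TATAAA was held by 14.2% and TGACG by 21.2% of 33469 promoter windows of this length. TGACG was also found in the Cfd window, at -123. None of the 4 motifs was found in the Scd window, and CCAAT was in 37.5% of all windows. One more motif, GGGCGG (the GC box, not capitalised), was found on the reverse strand at -162 in the Cfd window and at -131 in the G0s2 window. It was in 33.1% of all windows. G0s2 (chr13:107335899-107336198) held AGGTCA, in reverse, at position 24 after the start, as did 16.2% of windows somewhere. These matches are descriptions of letters, not binding sites.

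Before the results, 5 arrays and 3 close pairs of arrays need naming. An index of injury was taken on each array as the mean centred log2 value of 756 probe sets higher in left gel than in sham arteries minus that of 612 lower ones, chosen without the tPA arrays. It lay between 1.374 and 1.457 in left gel on day 1, between 1.994 and 2.023 in left gel on day 4, between -1.021 and -0.343 in sham and intact arteries, and between -0.431 and 0.298 in right gel arteries. Among tPA rats, the left pools numbered 2 on day 1 (-0.005) and 1 on day 4 (-0.526) lay below all left gel arrays and the other 4 left tPA arrays (1.233 to 1.723). The right pools with these numbers (1.423 and 1.406) lay above all right gel arrays and the other 4 right tPA arrays (-0.651 to -0.028). All 4 kept their labels, and values without them are given below where a call or a sizeable part of a difference changes. In comparisons that hold no tPA array, leaving them out changes only the shared spread and the adjustment over all probe sets. An adjusted p can then move while the difference stays the same, which is no result about the gene alone. On right gel day 1 replicate 3 only 6.57% of probe sets lay at or below the floor, against 15.64% to 25.16% on the other arrays. The closest pairs within groups were left gel day 1 replicates 1 and 3 (SD of log2 differences 0.45) and sham day 1 replicates 1 and 2 (0.49) and 3 and 4 (0.53). The other pairs of these groups lay at 0.73 to 0.98. Whether the close pairs are independent pools was not tested, so p-values that use these groups may rest on fewer independent arrays than counted. Differences are of log2 intensity after raising values below 23.3 to that floor, so they understate changes of dim genes. They were tested with limma over 5827 probe sets, and a gene passed at a Benjamini-Hochberg adjusted p under 0.05. Of the 13 probe sets 12 were bright enough to be tested. G0s2, Scd and the second Ucp1 probe set had mean levels above the brightness limit in only 9, 6 and 6 of the 11 groups, so for them the limit was met partly through the groups where they were high.

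On day 4 the members moved in both arteries of gel-treated rats against sham, but not as one block. In the injured left artery 3 genes, Cfd, Lpl and G0s2, were higher (11.3% of all probe sets were) and Slc2a4 lower (7.89% of all), while in the uninjured right artery 5 genes, Cfd, Lpl, G0s2, Scd and Ucp1, were higher (6.23% of all). Left against right, tested directly, 3 genes, Scd, Ucp1 and Slc2a4, were lower in the injured artery (3.47% of all). That last set was fragile: with any 1 of the 6 arrays left out, 0 or 1 of the 3 genes passed. In numbers, 4 of 7 genes passed in left gel against sham (7 of 12 probe sets, where 19.2% of all probe sets passed), 5 of 7 in right gel against sham (8 of 12, against 8.82% of all), and 3 of 7 in left against right gel (4 of 12, against 5.1% of all). The median difference over the 7 genes was 0.84, 3.08 and -0.99 in these comparisons, against 0.03, -0.01 and 0.07 over 3546 named genes. The left and right comparisons share the sham arrays.

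**Figure D1:**
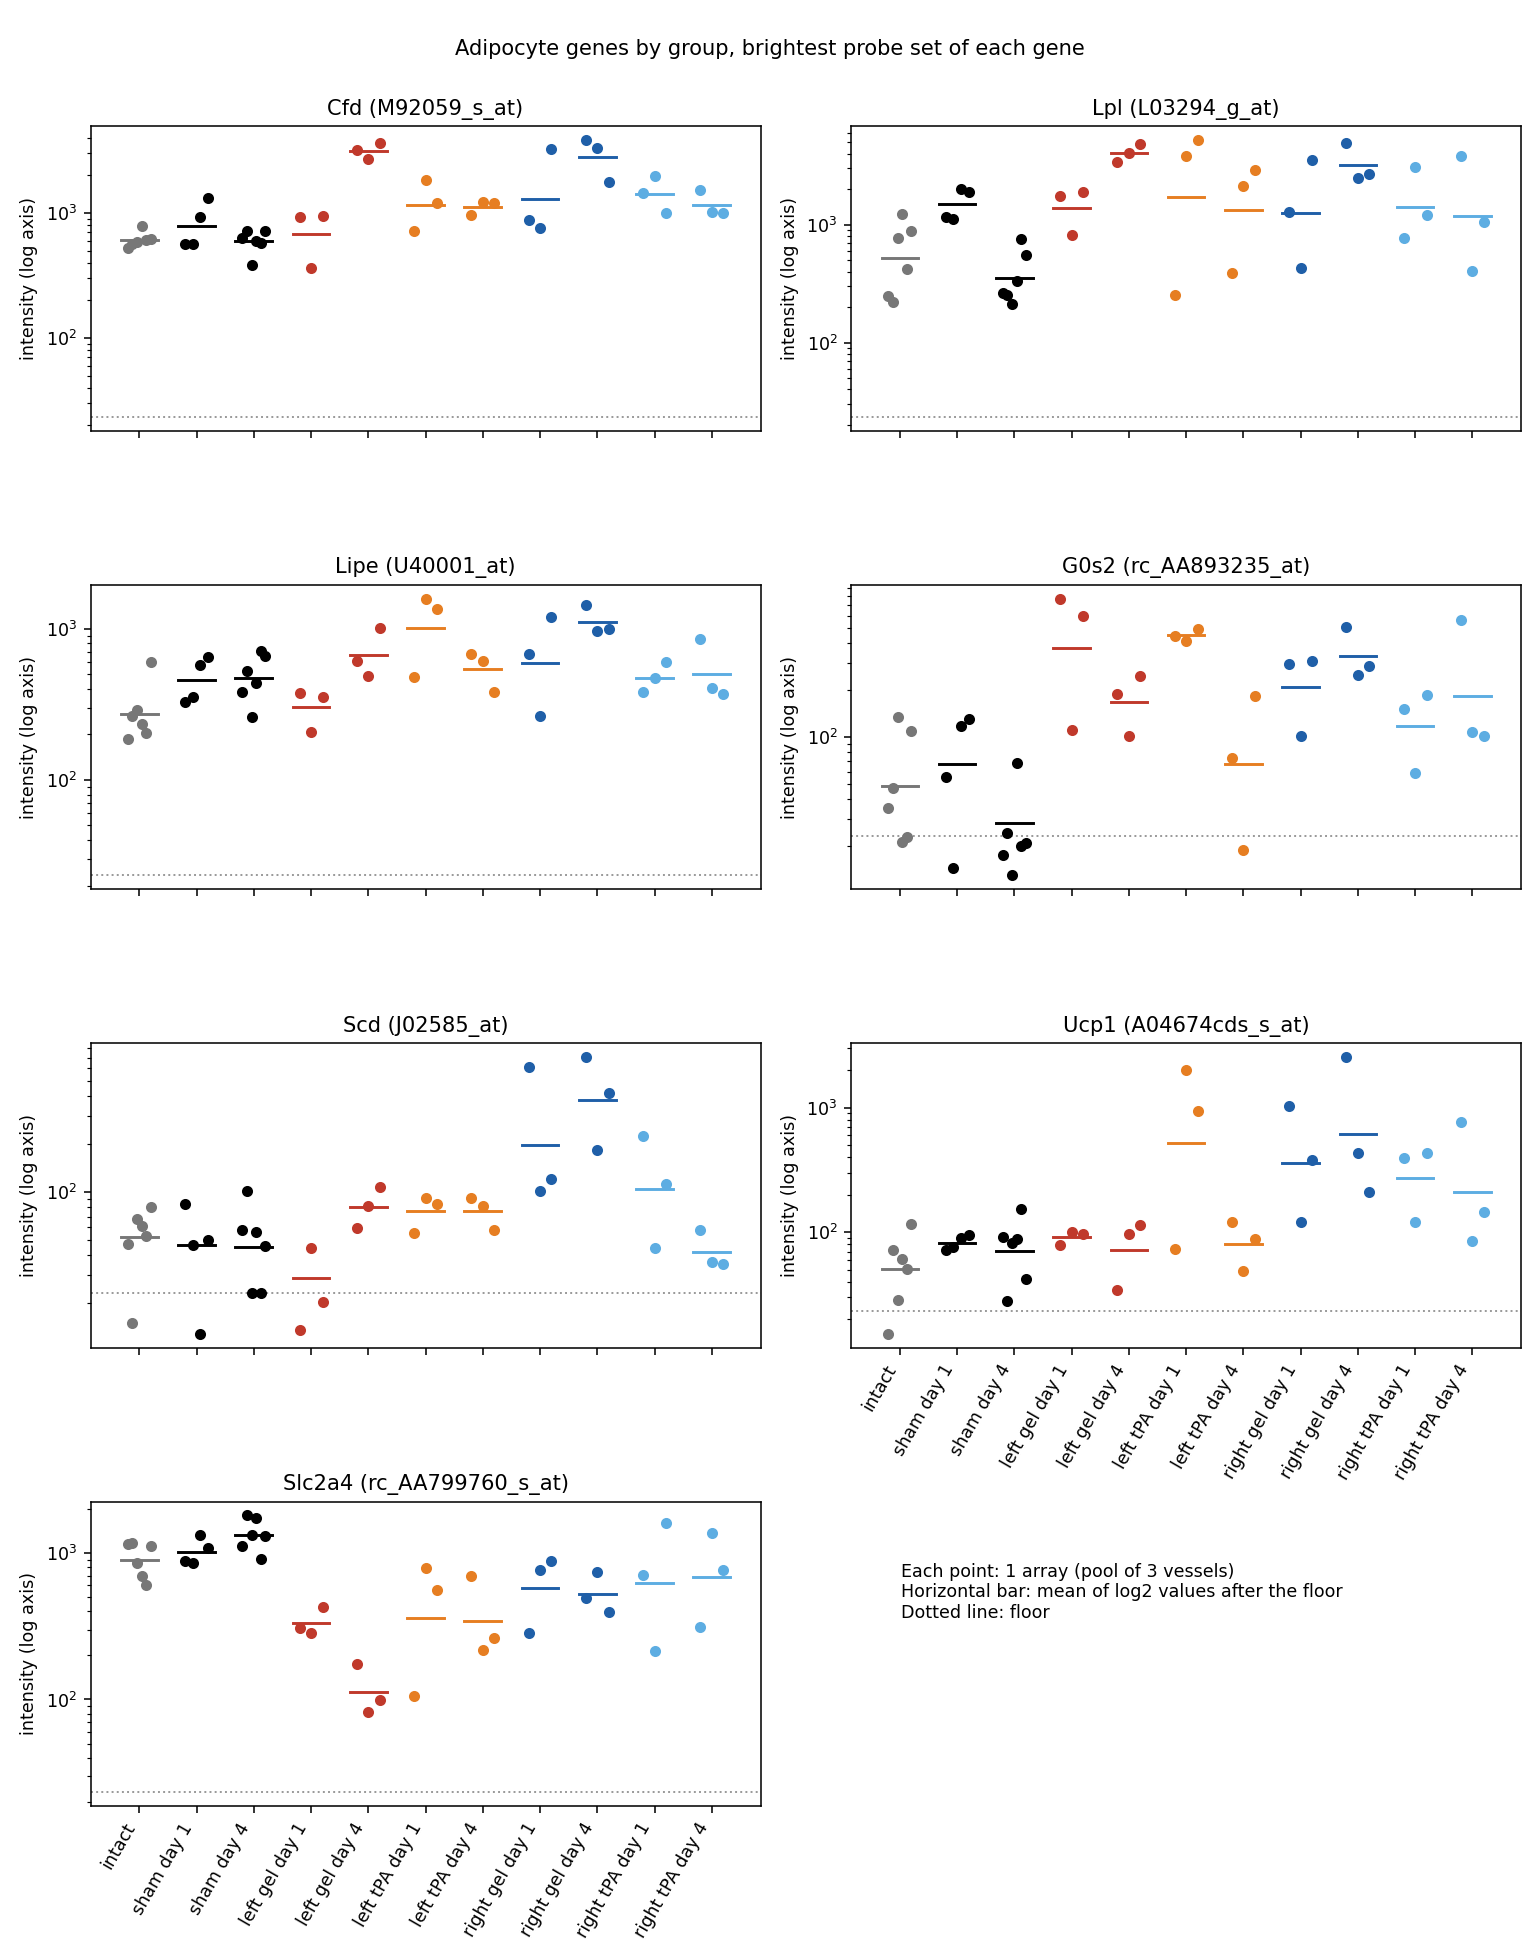
Intensity of each of the 7 genes (log axis) on 40 arrays in 11 groups, by the brightest probe set; bars are means of log2 values and the dotted line is the floor of 23.3. Cfd and Lpl were high in both gel arteries on day 4, Scd in right gel arteries, and Slc2a4 was lowest in left gel on day 4.

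Cfd encodes adipsin (complement factor D), a serine protease secreted by adipocytes. Its intensity was 3185.5, 2685.9 and 3633.1 in left gel on day 4 and 3804.7, 3320.0 and 1765.0 in right gel on day 4. In sham arteries of day 4 it ran from 381.5 to 717.7 with a median of 613.3, so neither gel group overlapped with sham. The difference from sham was 2.41 ± 0.37 (SE; 5.32-fold; limma adjusted p = 4.304e-05) on the left and 2.25 ± 0.37 (4.76-fold; limma adjusted p = 0.0001307) on the right. Between left and right gel on day 4 Cfd differed by 0.16, with a 95% interval from -0.71 to 1.03.

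On day 1 Cfd was at 933.8, 361.5 and 939.5 in left gel arteries and at 564.2, 568.4, 929.1 and 1325.4 in sham arteries, and the groups overlapped. Right gel arteries of day 1 were uneven, at 883.2, 753.3 and 3251.6. The rise between day 1 and day 4 within left gel arteries was 2.21 ± 0.43 (limma adjusted p = 0.002348), the only member call there, kept without each of the 6 arrays, where 3.21% of all probe sets passed. The difference of left gel from sham was larger on day 4 than on day 1 by 2.63 ± 0.55 (limma adjusted p = 0.005036). Balloon injury and gel cannot be told apart in it, as sham arteries had no gel. For right gel minus sham the same change was 1.55 ± 0.55 and did not pass (limma adjusted p = 0.07584). The change on the left was the only 1 of 48 such differences of differences over the members that passed. In its contrast 2.42% of all probe sets passed. In the other 3 it was 0.0858% (left tPA minus left gel), 0.326% (left minus right gel) and 7.84% (right gel minus sham). In tPA rats on day 4 Cfd lay between the sham and gel levels of that day, at 969.2, 1227.5 and 1190.5 on the left and 1516.9, 1015.3 and 1005.8 on the right. All 6 values exceeded every sham value of day 4, yet the differences of 0.93 (limma adjusted p = 0.1285) and 0.97 (limma adjusted p = 0.1685) did not pass. Left tPA against left gel on day 4 gave -1.49 ± 0.43 for Cfd without overlap of the groups, and it did not pass over all probe sets (limma adjusted p = 0.1851).

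Lpl encodes lipoprotein lipase, which frees fatty acids from circulating lipoproteins. Its brightest probe set stood at 3414.9, 4045.8 and 4842.8 in left gel on day 4, at 4917.6, 2477.5 and 2683.7 in right gel, and between 212.9 and 752.0 (median 298.4) in sham. The difference from sham was 3.52 ± 0.77 (11.5-fold; limma adjusted p = 0.001163) on the left and 3.17 ± 0.77 (9.03-fold; limma adjusted p = 0.00746) on the right. All 3 Lpl probe sets passed in both comparisons, and over the 40 arrays the other 2 followed the brightest with r of 0.906 and 0.869. Without right gel day 4 replicate 1, the right-hand calls of all 3 probe sets were lost (brightest: limma adjusted p = 0.05065).

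The sham groups also stood apart in Lpl: 1151.8, 1110.7, 1992.2 and 1912.1 in sham arteries of day 1 lay above all 6 sham values of day 4. The day 1 values came from 2 of the close pairs named above. The difference between the sham groups, -2.07 ± 0.70 for day 4 minus day 1, did not pass (limma adjusted p = 0.07391; 0.03558 without the 4 named tPA arrays). The other 2 probe sets gave -0.86 and -1.10, and their sham groups overlapped. Against the sham arteries of day 1, left gel arteries of day 1 (1757.6, 814.5 and 1884.3) differed by -0.09, with an interval from -1.79 to 1.60. In tPA arteries Lpl was split within groups: 253.0, 3806.7 and 5203.7 on the left on day 1, 391.7, 2127.1 and 2897.2 on the left on day 4, and 3822.1, 401.3 and 1063.0 on the right on day 4. So was right gel of day 1, at 1274.3, 432.5 and 3560.4. Left tPA against sham on day 4 was 1.92 (limma adjusted p = 0.1273), and 2.81 without the 4 arrays (limma adjusted p = 0.01091). The 4 arrays were set apart by genes that differ between left gel and sham arteries, as Lpl did on day 4. Leaving them out therefore favours a larger gap by the choice itself, and the value of 2.81 is no independent support.

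Of the lipolysis genes, G0s2 passed in 4 comparisons and Lipe in 0 by limma, and the difference between both was not tested. Lipe encodes hormone-sensitive lipase, and G0s2 an inhibitor of adipose triglyceride lipase. Lipe stood at 1426.7, 966.9 and 1001.1 in right gel on day 4, above all sham values of day 4 (261.7 to 710.1), with a difference of 1.25 ± 0.42 that did not pass (limma adjusted p = 0.06041) and passed without the 4 tPA arrays (limma adjusted p = 0.04518). In left gel on day 4 it was at 612.7, 486.8 and 1010.8 and overlapped with sham. In left tPA arteries of day 1 it was at 477.0, 1580.7 and 1360.0, and against left gel of day 1 the difference was 1.74 ± 0.49 without overlap (limma adjusted p = 0.1116). The second Lipe probe set spanned only 0.72 between its highest and lowest group means, followed the first with r of 0.522 over 40 arrays, and was not higher in right gel on day 4 by its value (-0.17).

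G0s2 was near the floor in sham arteries of day 4, from 13.0 to 68.2 with a median of 20.5. It stood at 188.0, 102.4 and 245.2 in left gel and at 507.5, 251.9 and 286.9 in right gel on day 4, with no overlap. The differences from sham were 2.58 ± 0.68 (5.97-fold; limma adjusted p = 0.006123) and 3.56 ± 0.68 (11.8-fold; limma adjusted p = 0.0006401). On day 1 it was at 773.1, 111.9 and 597.5 in left gel and at 445.5, 415.7 and 494.7 in left tPA arteries, against 56.0, 14.5, 118.9 and 130.0 in sham. The left gel values overlapped with sham, those of left tPA did not, and 773.1 was the highest of all 40 arrays. Left tPA against sham on day 1 gave 2.75 ± 0.73 (limma adjusted p = 0.02733), where 4.43% of all probe sets passed. That call was lost without sham replicate 1 or 2 and without tPA replicate 1 or 3. The left gel difference of similar size, 2.47 ± 0.73, did not pass (limma adjusted p = 0.05716; 0.02721 without the 4 tPA arrays), and tPA against gel differed by 0.28 with an interval from -1.32 to 1.87. In right tPA arteries of day 4 G0s2 was at 563.7, 108.2 and 101.6 and passed against sham (2.71 ± 0.68; limma adjusted p = 0.04377; 0.91% of all passed). That call was lost without replicate 1, which is 1 of the 4 named arrays (1.90 without the 4; limma adjusted p = 0.3512), and without sham replicate 1, 2, 3, 5 or 6. Right gel arteries of day 1 were at 294.1, 101.2 and 306.4 and intact arteries between 21.2 and 134.5.

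Scd encodes stearoyl-CoA desaturase, which makes the monounsaturated fatty acids of stored triglyceride. It was at 705.7, 183.0 and 418.2 in right gel arteries of day 4, against 23.0 to 101.0 (median 50.8) in sham, a difference of 3.08 ± 0.53 (8.44-fold; limma adjusted p = 0.0002122). In left gel arteries of day 4 it was at 59.0, 81.6 and 107.7, and left minus right was -2.23 ± 0.61 (limma adjusted p = 0.02826), with no overlap. On day 1 the same split was seen, with 13.5, 44.3 and 20.2 on the left and 615.5, 101.5 and 121.0 on the right (-2.77 ± 0.61; limma adjusted p = 0.03942; 0.549% of all passed). This was the only member call between the gel arteries of day 1. It was lost without right gel replicate 1, without left gel replicate 1 and without left gel replicate 3, and was kept without right gel replicate 3. Right gel against sham on day 1 was 2.09 ± 0.57 for Scd and did not pass (limma adjusted p = 0.07803). Right tPA arteries of day 4 were at 57.8, 36.4 and 35.1, in the sham range, below all 3 right gel arteries of that day. Right tPA was not tested against right gel. The second Scd probe set was at the floor on 39 of 40 arrays, was not tested, and exceeded the floor only on right gel day 1 replicate 3 (55.2).

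Ucp1 encodes the uncoupling protein of brown adipocytes. Its brighter probe set was at 2546.4, 434.1 and 210.7 in right gel on day 4, at 34.1, 97.4 and 113.6 in left gel, and between 28.3 and 154.2 (median 85.4) in sham. Right gel was higher than sham by 3.13 ± 0.81 (8.75-fold; limma adjusted p = 0.01176), and the second probe set by 3.31 ± 0.93 (limma adjusted p = 0.02054). Left minus right gel was -3.09 ± 0.93 (limma adjusted p = 0.04671) by the brighter probe set and -2.70 by the other, which did not pass (limma adjusted p = 0.1529). The highest value was a single array, right gel day 4 replicate 1. Without it the differences from sham were 2.11 (limma adjusted p = 0.1651) and 2.21 (limma adjusted p = 0.228), and the number of genes passing in right gel against sham fell from 5 to 3.

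**Figure D2:**
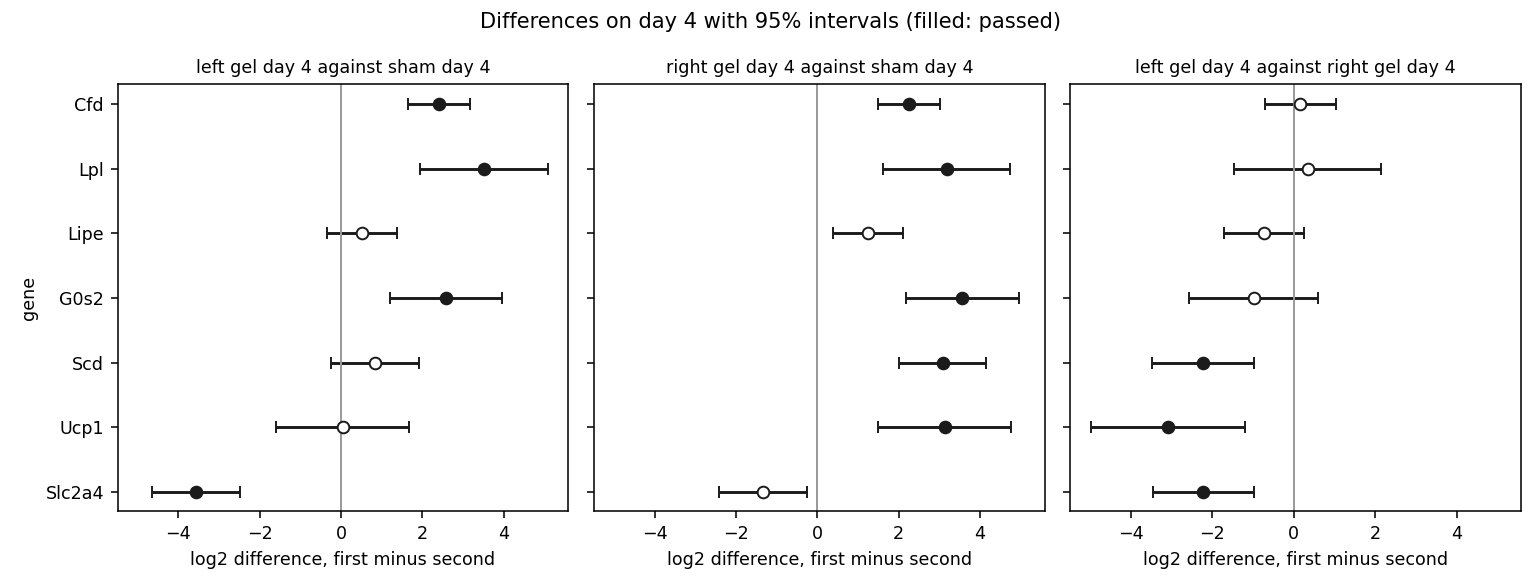
Log2 differences on day 4 with 95% intervals for the 7 genes in 3 comparisons, first group minus second; filled points passed at an adjusted p under 0.05 over all probe sets. Slc2a4 lay at -3.56 in left gel against sham, and Scd and Ucp1 lay above 3 in right gel against sham and at 0.84 and 0.04 on the left.

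High Ucp1 values were not tied to 1 group. The brighter probe set read 73.2, 2023.4 and 941.8 in left tPA arteries of day 1, 1026.4, 120.6 and 378.3 in right gel of day 1, 392.6, 121.4 and 430.7 in right tPA of day 1, and 765.2, 85.3 and 144.3 in right tPA of day 4. No array of intact, sham, left gel or left tPA day 4 arteries exceeded 154.2. The second probe set followed with r of 0.886 over 40 arrays. In left tPA arteries of day 1 it read 63.7, 1720.7 and 796.1, and it passed against sham of day 1 (3.94 ± 1.00; limma adjusted p = 0.02143), where 3 of 4 sham arrays lay at the floor. On tPA replicate 3 the ratio of 3' to 5' actin probe sets, a sign of RNA length, was the lowest of all 40 arrays (2.8). Its part in the call was not tested. The call against sham was lost without tPA replicate 2 or 3 and without sham replicate 2 or 3. The brighter probe set did not pass there (2.65 ± 0.87; limma adjusted p = 0.07242). Without the 4 arrays, replicate 2 among them, the differences were 2.96 (limma adjusted p = 0.04319) and 1.67 (limma adjusted p = 0.2273). On day 4, 2 of the 3 right tPA arrays lay within the sham range, and neither right tPA comparison with sham passed for Ucp1 (1.73 on day 1 and 1.59 on day 4; 2.32 and 0.66 without the 4 arrays).

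**Figure D3:**
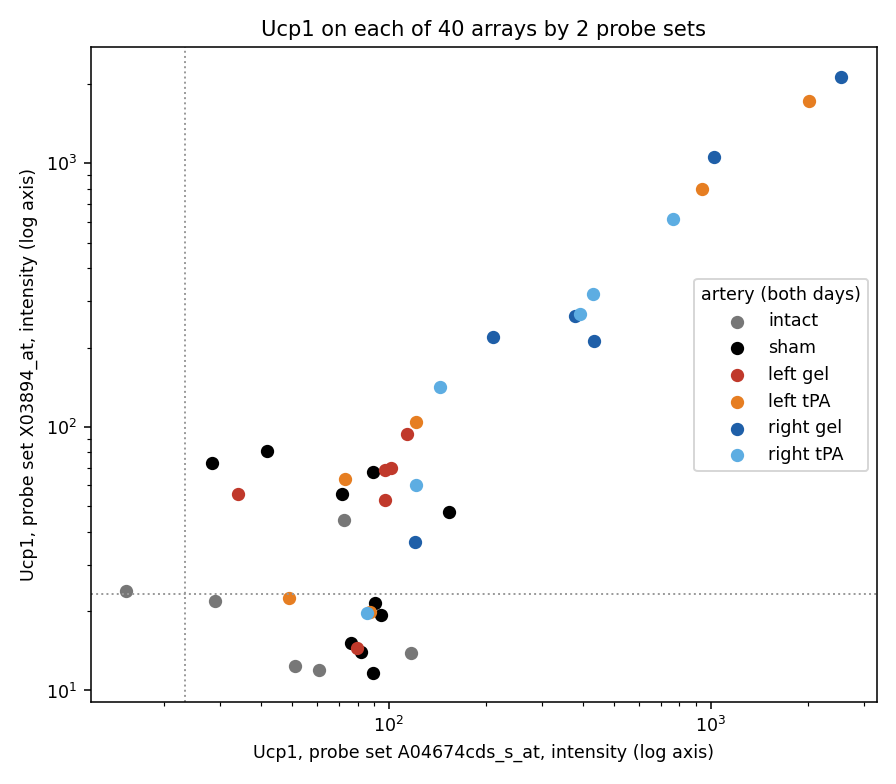
Ucp1 intensity on each of 40 arrays by its 2 probe sets (both axes log; dotted lines mark the floor of 23.3), coloured by artery with both days together. The 3 highest arrays by the first probe set were right gel day 4 replicate 1, left tPA day 1 replicate 2 and right gel day 1 replicate 1, and each was also high by the second.

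Slc2a4 encodes GLUT4, the insulin-regulated glucose transporter of fat and muscle, and went lower where others of the 7 went higher. It was at 175.2, 81.6 and 99.6 in left gel arteries of day 4, against 903.9 to 1800.0 (median 1309.7) in sham, a fall of 3.56 on the log2 scale (SE 0.53; 11.8-fold; limma adjusted p = 2.8e-05). The second probe set read 81.7, 98.7 and 66.9 against 359.9 to 688.5 (-2.79 ± 0.49; limma adjusted p = 0.0001457). Right gel arteries of day 4 were at 496.2, 739.3 and 396.6, all below the sham range, but -1.33 ± 0.53 did not pass (limma adjusted p = 0.1189; 0.02663 without the 4 tPA arrays). Left minus right gel was -2.23 ± 0.61 (limma adjusted p = 0.02913) and -2.09 ± 0.56 (limma adjusted p = 0.0257) by the 2 probe sets, and each of these calls was lost without any of 5 of the 6 arrays in turn. Intact arteries lay between 606.6 and 1164.3.

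Left gel arteries of day 1 were at 306.0, 282.7 and 430.3 for Slc2a4, below all sham values of day 1 (857.6 to 1332.7), and -1.61 ± 0.57 did not pass (limma adjusted p = 0.1292; 0.01776 without the 4 tPA arrays). In left tPA arteries of day 4 it read 697.8, 218.5 and 261.5, lower than sham (-1.95 ± 0.53; limma adjusted p = 0.02626; 5.87% of all probe sets passed), the only member call there, and it was lost without replicate 2 and without replicate 3. Left tPA against left gel on day 4 was 1.60 with an interval from 0.36 to 2.85 and did not pass (limma adjusted p = 0.4159). Replicate 1, the array with the low injury index, had the highest Slc2a4 level of its group, and left tPA day 1 replicate 2 had that of its group too (105.6, 792.5 and 559.9). Against sham of day 1 this group differed by -1.50 (limma adjusted p = 0.1187), and by -2.07 without the 4 arrays (limma adjusted p = 0.004593). Left against right tPA did not pass (-0.78 on day 1 and -1.01 on day 4) and did without them (-2.12, limma adjusted p = 0.02095, and -2.10, limma adjusted p = 0.02643). The 4 arrays were set apart by genes that differ between left gel and sham arteries, as Slc2a4 does. Leaving them out therefore favours a larger gap in Slc2a4 by the choice itself, and these tPA values are no independent support. Left gel of day 4 against day 1 was -1.57 (limma adjusted p = 0.154; 0.04138 without the 4 arrays). The second probe set put replicate 3 of left tPA day 1 highest (74.7, 362.7 and 1841.9). Right tPA arteries were spread widely, at 706.8, 212.7 and 1590.8 on day 1 and 310.9, 1375.1 and 758.9 on day 4, with the lowest of each on an array named above.

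In the order of group means, neighbours mostly did not differ by more than their pooled SD. For Cfd 2 of 10 steps exceeded it: from right gel day 4 down to right tPA day 1, and from left tPA day 4 down to sham day 1. For Scd the only such step was from right tPA day 4 to left gel day 1, and for the brighter Ucp1 probe set it was from right tPA day 4 to left gel day 1, which parted the 5 groups with high arrays from the other 6. For Slc2a4 the steps were from sham day 4 to sham day 1 and from left gel day 1 to left gel day 4. For G0s2 and the brightest Lpl probe set no step exceeded the SD, and for Lipe 1 did, from sham day 1 to left gel day 1. The span of group means was 2.41 for Cfd, 3.52 for Lpl, 2.03 for Lipe, 4.00 for G0s2, 3.71 for Scd, 3.59 for Ucp1 and 3.56 for Slc2a4 on the log2 scale.

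Of the 18 comparisons, 8 had a member call and 10 had none. No member passed in left gel against sham on day 1 (3.12% of all probe sets passed), in right gel (0.927%) or right tPA (0.172%) against sham on day 1, in left tPA against left gel on day 1 or day 4 (0.12% each), in left against right tPA arteries (0.0172% on day 1 and 0.0343% on day 4), in sham against intact (0.944% and 0.378%), or between the sham groups (5.01%). At an unadjusted p under 0.05 by limma, between 0 and 4 of the 12 member probe sets would pass in these comparisons, where 7.53% to 23.7% of all probe sets would. The 4 were reached in left tPA against left gel on day 1 (13.3% of all) and in right gel against sham on day 1 (12.6% of all). In none of the 25 probe set calls did the groups overlap, but the share over all calls was not counted, so this marks nothing particular to the members. The tPA comparisons against gel therefore gave no member call, in a setting where few probe sets passed at all. The intervals there were wide: for Ucp1 on day 1 tPA minus gel was 2.49, from 0.60 to 4.39 (limma adjusted p = 0.2454), and without the 4 arrays 1.51, from -0.36 to 3.38. For Lpl on day 4 it was -1.60, and -0.71 without the 4 arrays, whose choice was not independent of this gene.

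Across arrays, the 6 genes other than Slc2a4 varied together. All 15 pairs among them had a positive Pearson r over the 40 arrays (0.329 to 0.776, median 0.538), highest for Cfd with Lpl. After each group's mean was taken away, 14 of 15 remained above 0 (median 0.358), and Cfd with Scd was at -0.087. By the brighter Slc2a4 probe set the 6 pairs with this gene were all below 0 (-0.502 to -0.064), and after the group means were taken away 4 of 6 were above 0. Its second probe set was above 0 with Ucp1 (0.21), near 0 with Scd (-0.021) and Lipe (-0.029), and lowest with Cfd (-0.453). After the group means were taken away that probe set ran from -0.031 with Cfd to 0.457 with Ucp1. These are descriptions over arrays that share groups and scaling. Within right gel of day 1 the members parted: replicate 1 had the highest Scd and Ucp1 of its group (615.5 and 1026.4), and replicate 3 had the highest Cfd and Lpl (3251.6 and 3560.4).

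Other genes of the adipocyte were taken from lists by role. Of 7 tested genes for fatty acid uptake, storage and lipolysis, 2 were higher in right gel than in sham on day 4 and 0 lower. These were Fabp4, the fatty acid binding protein of adipocytes (3.56 ± 1.14; limma adjusted p = 0.04424), and Acsl1, an acyl-CoA synthetase (1.68 ± 0.49; limma adjusted p = 0.02799). Fabp4 read 3025.6, 1511.0 and 1086.9 in right gel against 9.5 to 371.0 in sham. Of 5 tested genes for fatty acid synthesis 1 passed there, Fasn, the fatty acid synthase (0.99 ± 0.21; limma adjusted p = 0.00168), and Fasn was lower in left than in right gel (-0.94 ± 0.24; limma adjusted p = 0.01816). Rbp4, which carries retinol, was lower in left than in right gel too (-3.40 ± 0.92; limma adjusted p = 0.02698), 1 of 2 tested secreted factors.

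In left gel against sham on day 4, 1 of the 7 uptake and lipolysis genes was higher, Pde3b, a phosphodiesterase that degrades cyclic AMP (2.05 ± 0.44; limma adjusted p = 0.00106). Of 14 tested genes of brown fat and fatty acid oxidation, Ucp2 was higher (1.33 ± 0.31; limma adjusted p = 0.002361) and Hadha lower (-0.66 ± 0.24; limma adjusted p = 0.04943) there. No gene of that list passed by limma in right gel against sham on day 4, where Ucp1 did (2 of 14 had an unadjusted p under 0.05, as had 22.6% of all probe sets). Cidea, a lipid droplet protein of brown fat, read 3387.3, 1128.1 and 850.8 in right gel of day 4, so it was high on the same array as Ucp1, and its group overlapped with sham (723.7 to 1727.4). None of 4 tested adipocyte transcription factors, Pparg among them, passed by limma in any of these 3 comparisons, with 1 of 4 against sham on either side and 2 of 4 between the sides at an unadjusted p under 0.05, where 30.2%, 22.6% and 17.7% of all probe sets were. Adipoq and Retn were not analysed here.

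Markers of other cell types also differed between gel and sham arteries, not all in the direction of the members, and their part in the results was not tested. In right gel against sham on day 4, 6 of 9 nerve and Schwann cell genes were higher and 1 lower: Dbh (6.06) and Th (3.05), enzymes of noradrenaline synthesis, and the neurofilament genes Nefm (6.07) and Nefl (4.60) had the smallest p among the higher ones. The summed intensity of that list was 10187.0 to 21704.8 in right gel of day 4 and 5542.7 to 7504.4 in sham. Th, Dbh and Nefl were lower in left than in right gel (-2.51, -3.97 and -2.86). Dbh, Nefm and S100b lay at the floor on every array of some groups. Skeletal muscle genes were 1 of 17 higher in right gel of day 4 (Tnnc2), with a summed level of 4272.0 to 31380.6 against 5111.1 to 8069.6 in sham, and replicate 1, the array with the highest Ucp1, was the high one. Cox8b, a cytochrome oxidase subunit of brown fat and muscle, reached 6137.7 on replicate 3 of left tPA arteries of day 1 and 5522.2 on replicate 1 of right tPA arteries of day 4, and the summed skeletal muscle level there was 45717.0 and 40007.7.

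In left gel against sham on day 4, 5 of 6 macrophage genes were higher (Lgals3 2.74, Ctss 1.89, Aif1 3.83 and Fcgr2b 3.47), with a summed level of 12992.2 to 14289.8 against 1998.9 to 3834.6. In right gel 2 of 6 were higher (Lgals3 1.86 and Ctss 1.41). Smooth muscle genes were 4 of 7 lower on the left, among them Myh11 (-2.20) and Itga7 (-1.87), beside the fall of Slc2a4, and 1 of 7 lower on the right (Cnn1, -1.21). Skeletal muscle genes were 7 of 17 higher in left gel against sham on day 1, led by Tnnc2 (5.74), with a summed level of 27925.7 to 53494.5 against 4179.8 to 5785.1, while Slc2a4 was low. The ratio of 3' to 5' actin probe sets, a sign of RNA length, was 7.38 to 8.09 in left gel of day 4, 11.68 to 13.61 in right gel and 11.83 to 23.69 in sham of that day.

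**Figure D4:**
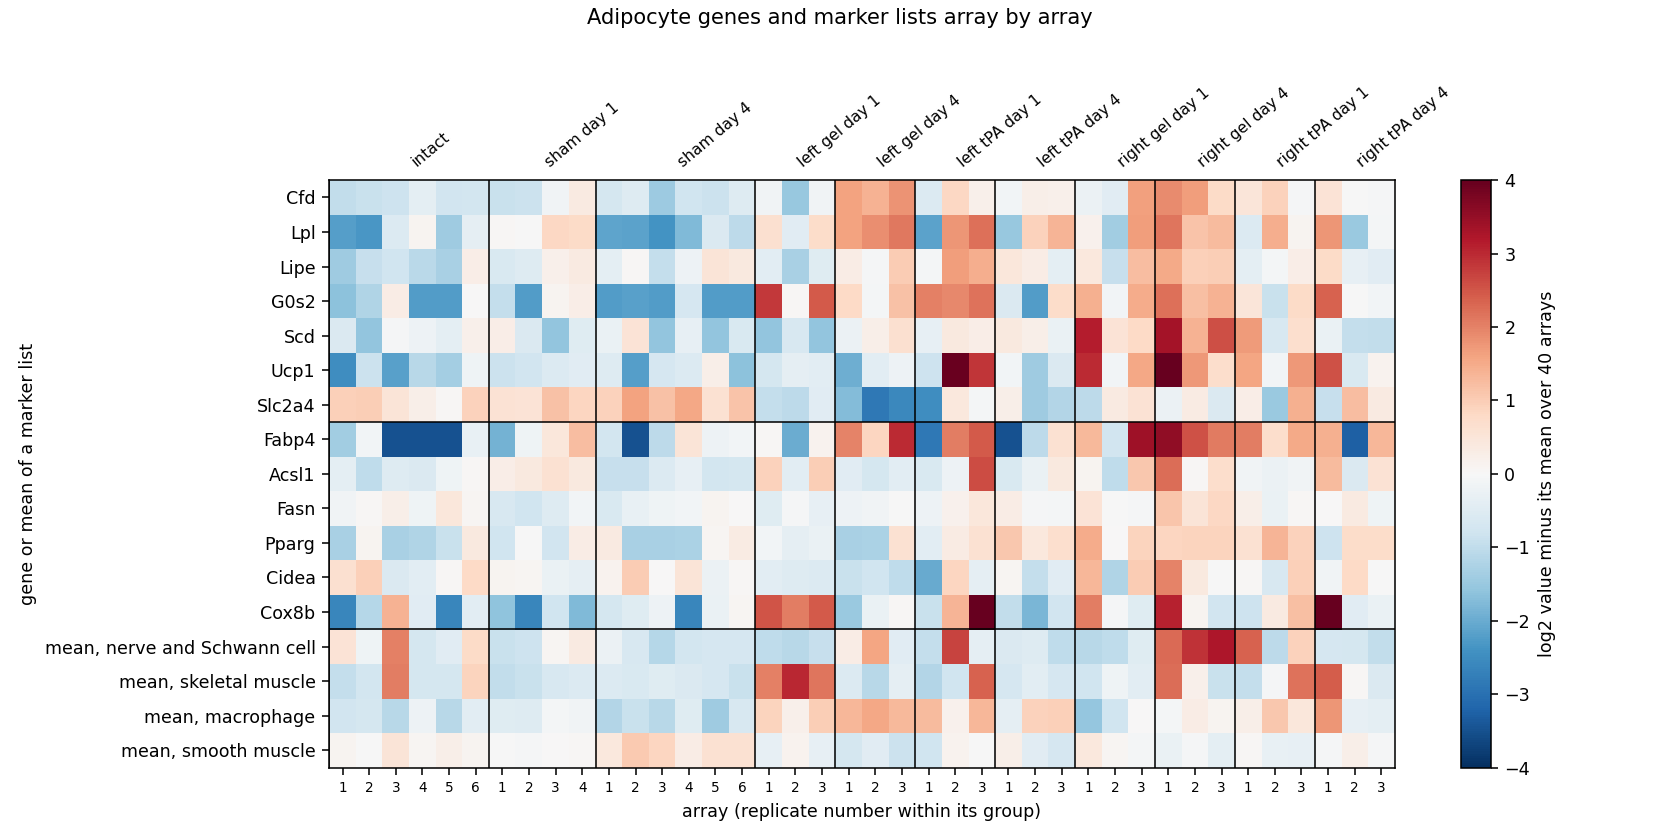
Log2 values minus their mean over 40 arrays for the 7 genes (top), 6 other adipocyte genes (middle) and the means of 4 marker lists (bottom), by array in 11 groups; the scale is cut at -4 and 4. The 3 right gel arrays of day 4 had positive values for the 6 genes other than Slc2a4 and for the nerve list, and the 3 left gel arrays of day 4 had positive Cfd and Lpl, negative Slc2a4 and positive macrophage means.

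The genes whose log2 level over the 40 arrays was most like the mean of the 7 members were sought among 3539 other tested genes. The 10 highest were Cyp2e1 (r = 0.831), Mgst1 (0.801), Fabp4 (0.774), Slco2a1 (0.738), Kdr (0.732), Pc (0.72), Reln (0.716), S100b (0.703), Cma1 (0.696) and Myoc (0.689). Pc encodes pyruvate carboxylase, Kdr a receptor of vascular endothelial growth factor, and Cma1 the chymase of mast cells. Cyp2e1 ranged from 35.6 to 2102.2 and peaked on right gel day 1 replicate 3, while Mgst1, Fabp4 and Pc peaked on right gel day 4 replicate 1. Most opposed were Pawr (-0.653), Fblim1 (-0.646), Grb14 (-0.643), Pla2g4a (-0.64) and Gpc6 (-0.615). Over the lists the median r with the member mean was 0.434 for fatty acid synthesis (5 genes), 0.382 for uptake, storage and lipolysis (7), 0.406 for transcription factors (4) and 0.32 for brown fat and oxidation (14). For secreted factors it was 0.09, from only 2 genes that parted, Rbp4 at 0.427 and Lep at -0.248. It was 0.432 for nerve and Schwann cell (9), 0.366 for macrophage (6), 0.186 for endothelial (6), 0.279 for skeletal muscle (17) and -0.249 for smooth muscle genes (7), beside 0.06 over all 3539. Lep, the leptin gene, which adipocytes secrete, did not follow by its value (r = -0.248; 1029.1 to 3294.2).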

How the data were processed

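Biotin-labelled RNA was hybridised to Affymetrix rat arrays, and the authors deposited a linear intensity for each probe set of every array. How probes were summarised is not given in the sources used here. Without the lowest and highest 2% the mean intensity of the deposited table was 500.0 on every array, so values are relative to the rest of their array. Of 8799 probe sets 59 controls were left out. Values below 23.3, the 20th percentile, were set to this floor before taking log2. The 2913 probe sets with the lowest mean were left out and 5827 tested in R 4.3.3 with limma 3.58.1 (lmFit, eBayes), with 11 group means over 40 arrays and Benjamini-Hochberg adjustment at 0.05 in each comparison. By the array's annotation 7006 probe sets carried 1 symbol, 308 several and 1426 none. The probe set with the highest mean represents a gene. The number of arrays limits the precision.

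The members, gene lists, comparisons and naming rule were chosen with earlier results of these data known. The rule names all 7 members, up to 4 genes per list with the smallest p that passed in a comparison described, and the 10 most and 5 least alike genes. The injury index and the fit without 4 tPA arrays rest on the same arrays. Same-numbered arrays deviated together (every r over 0.1) only in right gel against sham on day 1 (0.117 to 0.284), where no member passed with or without the replicate as a block. The fit was tested on simulated data. Alternatives were another floor, filter, scaling and weighting, the replicate block, the compared groups alone, averaging probe sets per gene, and leaving out each array.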

Additional observations from a re-analysis of the deposited data

Results flagged for a closer look

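Within groups of 4 to 6 arrays, 36 tests, each of 1 member probe set in 1 group, looked for a single array far from the rest, and 4 found one. Chance gives about 1 in 20 where values are not tied at the floor. In sham arteries of day 4, Cfd was low on replicate 3 (381.5, against 576.8 to 717.7 on the others; gap over range 0.654), and G0s2 was high on replicate 4 (68.2, against 13.0 to 24.4; 0.957). The second Ucp1 probe set was high on intact replicate 2 (44.4, against 12.0 to 23.8; 0.967) and on sham day 1 replicate 1 (55.5, against 11.7 to 19.4, all at the floor; 1.0). In the G0s2 group and these 2 Ucp1 groups, 4 of 6, 4 of 6 and 3 of 4 arrays lay at the floor. Tied values there make almost any array above the floor stand out, so the chance rate does not apply to these flags. The Cfd difference between left gel arteries and sham arteries, which had no gel, was larger on day 4 than on day 1 by 2.63 on the log2 scale.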

How the results depend on the processing

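Of 25 probe set calls, 225 of 241 checks under other settings and 153 of 203 checks with 1 array left out kept the call, and 0 reversed. Numbers of member genes passing and their median differences changed as follows, and the cause was not tested. In left gel against sham on day 1 (0 genes), 1 gene passed with the floor at the 40th percentile, with median scaling, with the replicate block and with only the 2 groups compared, 2 without the 4 tPA arrays and 3 with array weights, which moved the median from -0.22 to 0.19; leaving out 1 array gave 0 to 1 genes and medians of -0.45 to 0.10. In left tPA against sham on day 1 (1 gene), 0 passed with 50% of the probe sets left out, where G0s2 was no longer tested, or with only the 2 groups compared, and 2 passed with the higher floor, median scaling, probe sets averaged per gene or without the 4 arrays; without 1 array 0 to 2 genes passed and the median was 0.57 to 1.58. Without 1 array, left tPA against left gel on day 1 gave 0 to 2 genes, and right gel against sham on day 1 gave 0 to 1 genes and medians of 0.0412 to 1.10. Right tPA against sham on day 1 had a median of 0.0633 with 50% of the probe sets left out and 0.32 to 1.08 without 1 array. In left against right gel on day 1 (1 gene, Scd), 0 passed with the higher floor, with 50% left out, with the replicate block and with only the 2 groups compared, and 0 to 1 without 1 array. In left against right tPA 1 gene, Slc2a4, passed on day 1 and on day 4 without the 4 arrays, whose choice was not independent of this gene. Without 1 array the medians of left against right tPA were -0.31 to 1.63 on day 1 and -0.51 to 0.15 on day 4.

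On day 4, left gel against sham kept 4 genes without any 1 array, and its median without Slc2a4, a choice made after seeing the data, was 1.63, against -0.81 for left tPA against left gel, where array weights passed 2 genes. Left tPA against sham (1 gene) passed 3 with array weights, 2 without the 4 arrays, 0 with only the 2 groups compared and 0 to 2 without 1 array. Its median was 0.20 under the higher floor and with 50% left out. Over all probe sets 342 passed, and 1053 without the 4 arrays. Those arrays were set apart by genes that differ between left gel and sham arteries. Leaving them out therefore favours more calls in left tPA against sham, on either day, by the choice itself. Right gel against sham (5 genes) passed 3 with 50% left out, where Scd and G0s2 were not tested, and 3 to 5 without 1 array, and its median of 3.08 was 2.20 with the higher floor, 2.25 with 50% left out, 2.57 with probe sets averaged per gene and 2.11 to 3.36 without 1 array. Right tPA against sham (1 gene, G0s2) passed 0 with the higher floor, no filter, 50% left out, array weights, only the 2 groups compared or without the 4 arrays, and 0 to 1 without 1 array. Left against right gel (3 genes) passed 0 to 1 without any 1 array. Sham of day 4 against intact had a median of 0.46 with 50% left out. Sham of day 4 against day 1 passed 1 gene with median scaling, array weights, only the 2 groups compared or without the 4 arrays. Left gel of day 4 against day 1 (1 gene) passed 5 with array weights and 2 without the 4 arrays, with a median of 0.16 under the higher floor and 0.75 with probe sets averaged per gene.

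The replicate block ended 2 of 25 calls (Scd in left against right gel on day 1, and Ucp1 in the same comparison of day 4). Same-numbered arrays deviated together in 1 comparison only, and as its groups came from different rats this is not a pairing. Differences as tested minus those after median scaling had a median over all probe sets of -0.22 to 0.30 in the 18 comparisons. Median scaling ended 0 of 25 calls. Values near the floor of 23.3 limit G0s2, Scd and Ucp1 in sham arteries.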

Other observations

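The genes most like Ucp1 over the 40 arrays, by a rule added after values were seen, were Cyp2e1 (r = 0.73), Cma1 (0.661), Fabp4 (0.66), Mgst1 (0.64), Myoc (0.627) and Cpt1b (0.614), the muscle and brown fat form of carnitine palmitoyltransferase. Kdr, a receptor of endothelial cells, was higher than in sham in left gel (2.48 ± 0.59; limma adjusted p = 0.002428) and right gel arteries (2.55 ± 0.59; limma adjusted p = 0.004656) on day 4, as Cfd and Lpl were, and the 2 comparisons share the sham arrays. Esm1, an endothelial proteoglycan, was higher in left gel (4.52 ± 0.94; limma adjusted p = 0.000697) and left tPA arteries (3.59 ± 0.94; limma adjusted p = 0.02305) on day 4. On day 4 Fabp4 was at 6.9, 125.1 and 393.0 in left tPA arteries and at 695.6, 26.7 and 655.3 in right tPA arteries.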
